A study of Homo sapiens with 6 samples.

Results

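H3K27ac over the BCL2 family, the genes that set the balance between survival and mitochondrial apoptosis, was compared between control and ANP32B-depleted acute myeloid leukemia (AML) cells. The genes were chosen by name and were 10 of the 20007 protein-coding genes on chromosomes 1 to 22, X and Y: BCL2, MCL1, BCL2L1, BCL2A1, BAX, BAK1, BCL2L11, BBC3, PMAIP1 and BID. For each gene, peaks were examined in its locus (the gene body with 20 kb added on either side) and in its promoter window (2500 bases to either side of the start of its canonical transcript). All 10 genes were found in the annotation, and 1 of them, BCL2, had no peak in either MV4-11 library.

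H3K27ac, acetylation of histone H3 at lysine 27, marks active promoters and enhancers. The assay was CUT&Tag: a transposase, guided to the mark by an antibody, cuts and tags the DNA around it. The cells were 2 human AML lines: Kasumi-1, which carries a RUNX1::RUNX1T1 fusion, and MV4-11, which carries a KMT2A fusion and a FLT3 mutation. Each line had 1 NC library, called untreated in the labels and described in the study's methods as cells carrying a control hairpin, and 1 sh-ANP32B library, labelled as ANP32B knockdown. The cells were stable pools selected with puromycin after lentiviral infection, and the labels do not say which ANP32B hairpin was used. Replicates were merged before peaks were called, so each group gave 1 peak list, without replicate error, and no test was run. Where 4 values follow each other, they are those of both Kasumi-1 libraries and then of both MV4-11 libraries, in each line NC before sh-ANP32B. Every difference below describes these libraries and is a difference in the extent of called peaks, not in their height, which the lists do not hold. The 2 IgG libraries were not analysed here.

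The family has 3 kinds of members. Anti-apoptotic proteins such as BCL2 and MCL1 hold the effectors BAX and BAK1 in check. BH3-only proteins sense stress, bind the anti-apoptotic members or the effectors, and release the effectors to open the outer mitochondrial membrane. AML cells are known for their reliance on BCL2 and MCL1, and the BCL2 inhibitor venetoclax is used to treat the disease.

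The 4 lists held between 22136 and 24523 peaks on these chromosomes and covered between 23 Mb (MV4-11 sh-ANP32B) and 33.67 Mb (Kasumi-1 sh-ANP32B). The covered length after knockdown was 1.029 times that of NC in Kasumi-1 and 0.8248 times that of NC in MV4-11, and the read depth behind the lists is unknown. Some markers of the lines went against their labels. The promoter windows of HOXA9, HOXA10, MEIS1 and FLT3, which KMT2A-rearranged cells are known to express, held 14467 and 14980 bases under peaks in the libraries labelled Kasumi-1 and 7053 and 5420 in those labelled MV4-11. Of these genes, MEIS1 did not follow the summed values, with 3103, 3264, 3337 and 3123. Over all protein-coding genes, promoter windows also held more bases in the libraries labelled Kasumi-1, with 16242514, 15595637, 9058585 and 6533832. Of RUNX1T1, POU4F1, KIT and CD34, chosen as Kasumi-1 markers, only CD34 had any promoter bases, with 180 and 132 in the Kasumi-1 libraries. The fusion is transcribed from the RUNX1 promoter, so RUNX1T1 itself need not be marked. SPI1, the gene of the myeloid factor PU.1, had between 3008 and 3127 promoter bases in all 4 libraries. The myeloid gene MPO had no peak in its locus in any library, and PAX5, CD3E and ALB, markers of other cell types, had no promoter peak in any library. Line names are therefore those of the labels, and comparisons between the lines rest on them.

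The promoter sequences of 5 members are shown because their peaks were absent after knockdown in a line (BCL2, BCL2A1, BAX) or were present in every library but placed differently between the lines (BCL2L11, PMAIP1). Each is the stretch of 250 bases just before the canonical start, from RefSeq (GRCh38.p14). The table held 9 of the 10 members and not MCL1. Capitals mark matches on either strand to 5 short motifs. The SP/KLF box, a common promoter element, was searched as GGGCGG. The box bound by the NF-Y complex was searched as CCAAT. The E-box that MYC and its partner MAX can bind was searched as CACGTG. The core of ETS factor sites was searched as CGGAAG. The core favoured by PU.1, the myeloid ETS factor, was searched as GAGGAA.
BCL2, chr18:63319770-63320019, minus strand: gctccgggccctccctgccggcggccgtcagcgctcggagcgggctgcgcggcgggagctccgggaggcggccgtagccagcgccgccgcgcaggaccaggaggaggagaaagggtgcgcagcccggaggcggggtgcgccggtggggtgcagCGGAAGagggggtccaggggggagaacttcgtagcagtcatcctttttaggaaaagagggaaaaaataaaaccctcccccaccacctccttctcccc
BCL2A1, chr15:79971197-79971446, minus strand: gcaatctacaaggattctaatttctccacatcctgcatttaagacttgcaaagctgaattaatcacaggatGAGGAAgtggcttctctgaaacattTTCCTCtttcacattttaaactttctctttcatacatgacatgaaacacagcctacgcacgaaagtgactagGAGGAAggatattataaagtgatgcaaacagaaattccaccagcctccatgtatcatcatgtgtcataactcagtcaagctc
BAX, chr19:48954625-48954874, plus strand: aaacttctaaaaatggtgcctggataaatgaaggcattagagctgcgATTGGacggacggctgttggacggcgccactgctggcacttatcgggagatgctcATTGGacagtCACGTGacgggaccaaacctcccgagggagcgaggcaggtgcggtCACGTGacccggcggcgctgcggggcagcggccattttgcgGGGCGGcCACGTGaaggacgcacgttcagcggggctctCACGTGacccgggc
BCL2L11, chr2:111120664-111120913, plus strand: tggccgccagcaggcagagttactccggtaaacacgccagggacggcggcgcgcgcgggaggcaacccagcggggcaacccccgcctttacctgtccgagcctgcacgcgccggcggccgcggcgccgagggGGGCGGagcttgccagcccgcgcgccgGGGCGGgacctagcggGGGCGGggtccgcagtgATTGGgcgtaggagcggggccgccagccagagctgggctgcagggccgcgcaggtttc
PMAIP1, chr18:59899746-59899995, plus strand: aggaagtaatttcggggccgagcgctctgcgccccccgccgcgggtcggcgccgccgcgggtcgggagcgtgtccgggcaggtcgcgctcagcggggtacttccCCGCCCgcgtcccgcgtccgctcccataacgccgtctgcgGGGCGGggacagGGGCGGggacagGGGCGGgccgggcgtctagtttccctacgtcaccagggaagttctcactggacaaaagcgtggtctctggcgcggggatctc

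Of 15344 promoters of this length, 56.7% held an SP/KLF box, 34.8% a CCAAT box, 7.85% an E-box, 21.9% an ETS core and 23.5% a PU.1 core. The BAX promoter held 4 E-boxes, a count that 5 of these promoters (0.0326%) reached or passed. That count was looked up after the BAX matches had been seen. The BCL2A1 promoter differed from the others in composition, with 38.8% GC and 2 CpG dinucleotides against a median of 62.4% GC over all promoters, and it held 3 PU.1 cores. The promoters of BCL2L11 and PMAIP1 were rich in GC, with 76.8% and 72.8%, and held 3 and 4 SP/KLF boxes. A match describes letters only and is no evidence that a factor binds.

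Peaks did not sit over these sequences in the same way. In Kasumi-1, the BAX sequence had 250 of its bases under a peak in NC and 140 in sh-ANP32B, and in MV4-11 it had 0 in both libraries. The BCL2 sequence had 188 bases under a peak in Kasumi-1 NC and 0 in the other libraries, and the BCL2A1 sequence had 83 in MV4-11 NC and 0 in the other libraries. The BCL2L11 sequence was wholly covered in both Kasumi-1 libraries and uncovered in both MV4-11 libraries. The PMAIP1 sequence was wholly covered in both Kasumi-1 libraries, and in MV4-11 had 26 bases covered in NC and 0 in sh-ANP32B.

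Sequences of 150 bases are shown from the middle of 3 distal peak regions (hg38). They are the intron of BBC3 that carried its widest peaks, the wide region upstream of BCL2A1 and an intron of BCL2 with peaks in Kasumi-1 only. The first 2 are from stretches under a peak in all 4 libraries, the third from a stretch under a peak in both Kasumi-1 libraries. Capitals mark the core of RUNX factor sites, searched on both strands as TGTGGT. The PU.1 core above was also searched and gave no match. The same held for the AP-1 site, searched as TGANTCA. It held too for the GATA factor site, searched as AGATAA. The other promoter motifs were not searched here and are not marked. The BCL2 stretch holds the letters CACGTG and CGGAAG, left in small letters.
BBC3, chr19:47227121-47227270, minus strand: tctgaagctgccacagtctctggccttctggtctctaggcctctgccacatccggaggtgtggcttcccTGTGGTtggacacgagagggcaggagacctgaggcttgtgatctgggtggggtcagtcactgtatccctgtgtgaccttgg
BCL2A1, chr15:79978594-79978743, minus strand: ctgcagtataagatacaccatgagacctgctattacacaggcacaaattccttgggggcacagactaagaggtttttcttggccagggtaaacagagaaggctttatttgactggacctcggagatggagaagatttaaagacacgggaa
BCL2, chr18:63236877-63237026, minus strand: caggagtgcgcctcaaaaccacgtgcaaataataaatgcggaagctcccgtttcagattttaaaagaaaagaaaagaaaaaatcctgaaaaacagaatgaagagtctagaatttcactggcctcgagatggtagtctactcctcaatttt

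Of 7783 stretches of this length from distal regions under a peak in all 4 libraries, 12.6% held a RUNX core, so the match in BBC3 is a common one.

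**Figure D1:**
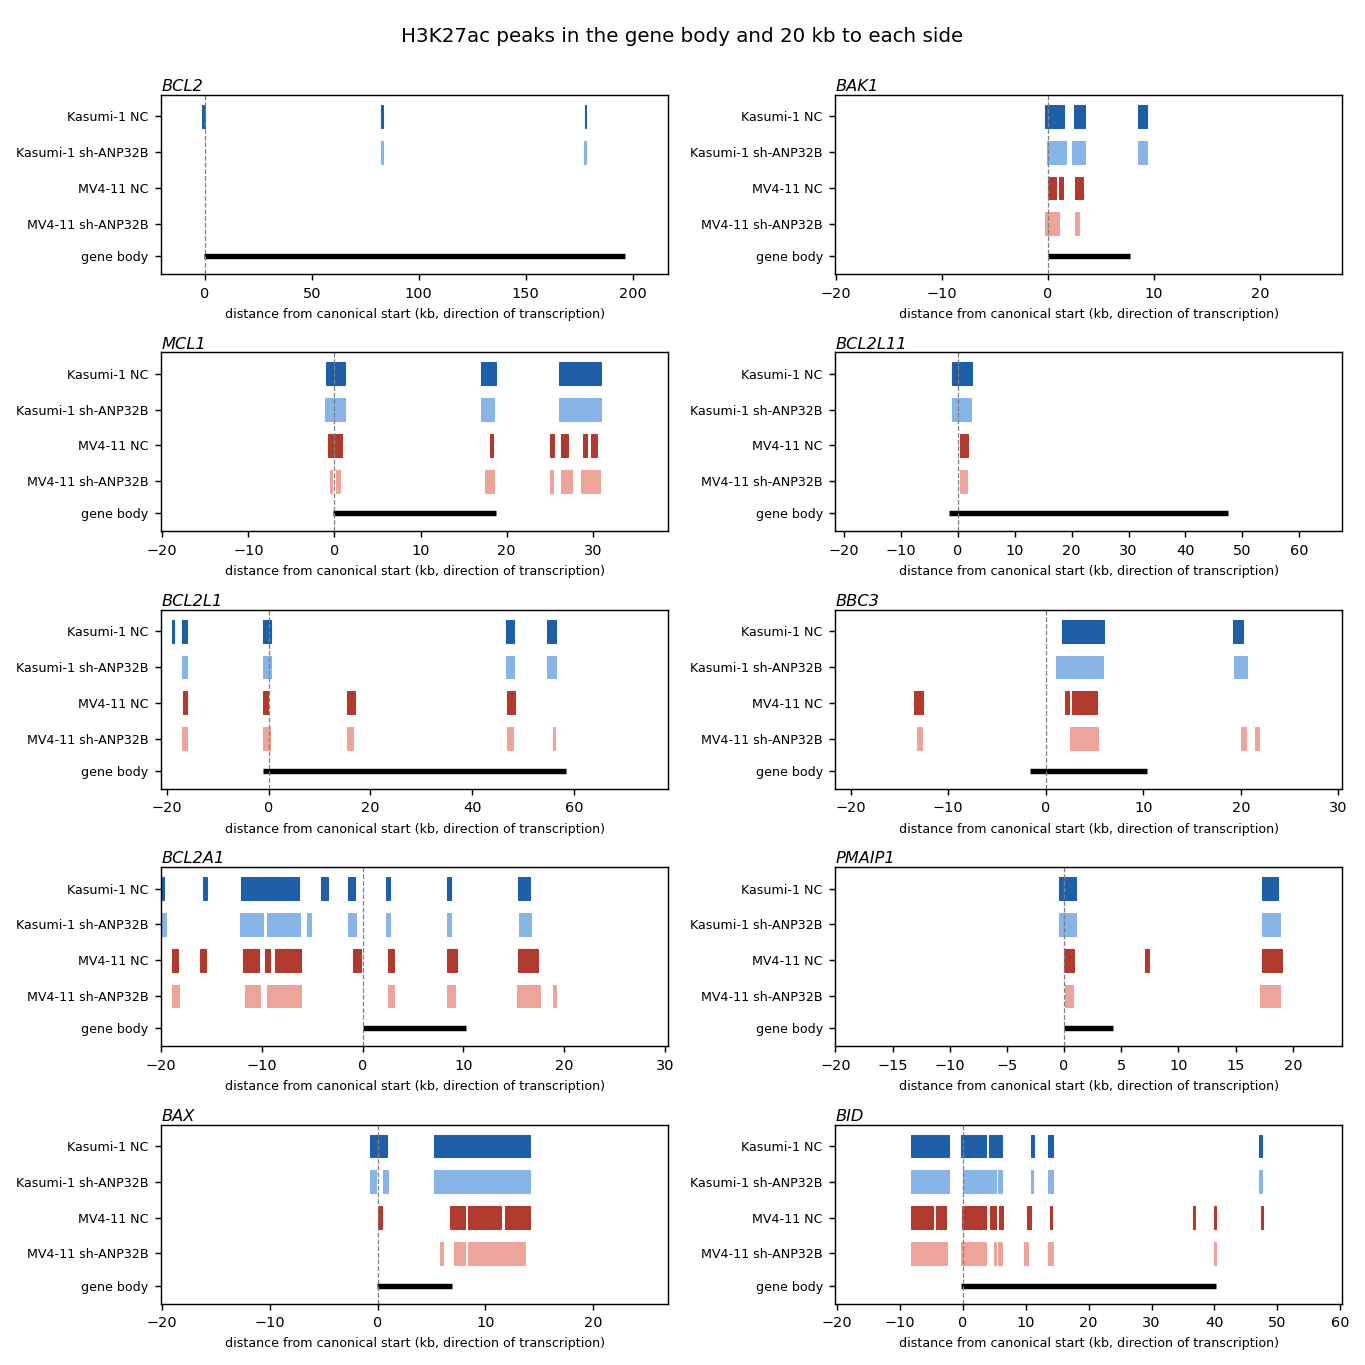
Peaks (coloured blocks) in the 10 loci, 1 row per library, against distance in kb from the canonical start (dashed line) in the direction of transcription. The black bar is the gene body. BCL2 has 3 peaks in Kasumi-1 before knockdown, 2 after it and none in MV4-11, while BID, BCL2A1 and BAX have wide blocks in all 4 libraries.

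In the promoter windows, which have the same length for every gene, BCL2L11 led in Kasumi-1 NC with 3553 bases under peaks, followed by BID (3182), MCL1 (2280), BAK1 (1809), BAX (1542), BCL2L1 (1500), PMAIP1 (1490), BCL2 (993), BCL2A1 (877) and BBC3 (837). BID led in MV4-11 NC with 2660 bases, followed by MCL1 (1652), BCL2L11 (1430), BAK1 (1115), BCL2L1 (994), PMAIP1 (882), BCL2A1 (818), BBC3 (469) and BAX (360), with BCL2 at 0. With 1 library per group, no spread separates neighbours in these orders. As a share of the length of the locus, BAX was the most covered in Kasumi-1 NC, with 22.3%, and BCL2A1 in MV4-11 NC, with 20.2%. Most of the BAX value came from a peak of 8925 bases that touched the promoter of the neighbouring gene FTL. Without that peak, 1542 of the 10467 locus bases of BAX were left. BCL2 was the least covered in both, with 0.85% and 0%.

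BCL2, the founding anti-apoptotic member (chr18:63123346-63320128, minus strand, hg38), had 2013 locus bases under peaks in the NC library of Kasumi-1, 1440 in its sh-ANP32B library and 0 in both MV4-11 libraries. In Kasumi-1 NC, a peak of 993 bases ran from base -1055 to base -63 relative to the start, and no peak was there in sh-ANP32B, where the nearest was 48110 bases away. The peaks in intron 2, however, were wider after knockdown, with 590 and 430 bases in NC and 707 and 733 in sh-ANP32B. Within the gene body alone, BCL2 thus had 1317 bases in NC and 1440 in sh-ANP32B, against the direction of the whole locus. In MV4-11, the peak nearest to the start was 102347 bases away in NC and 102449 in sh-ANP32B. A locus with a peak in Kasumi-1 NC and in no MV4-11 library was found for 1 of the 10 members, against a background of 11% of the genes with a Kasumi-1 NC peak in the locus.

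MCL1, a short-lived anti-apoptotic protein (chr1:150560895-150579738, minus strand), had 8960 and 8787 locus bases in the NC and sh-ANP32B libraries of Kasumi-1, and 4431 and 5697 in those of MV4-11. The Kasumi-1 libraries stood above both MV4-11 libraries, and the larger value within MV4-11 was that of sh-ANP32B. Promoter bases went the other way in MV4-11. They were 2280, 2367, 1652 and 773. In MV4-11 NC, a peak reached across the start from base -781 to base 870, whereas in sh-ANP32B it was replaced by peaks of 285 and 488 bases, from base -550 to base -266 and from base 202 to base 689, with the start itself uncovered. The largest addition lay at the promoter of the neighbour ADAMTSL4, where peaks of 698 and 381 bases in NC became a peak of 2211 bases in sh-ANP32B. Elsewhere downstream, a peak of 421 bases in NC was 1002 bases wide in sh-ANP32B and another of 747 bases was 1384 bases wide. Without the peaks at the ADAMTSL4 promoter, MCL1 had 4027, 3939, 3352 and 3486 bases in the same order of libraries. Peaks that touched that promoter were left out whole. In Kasumi-1 this took out a peak of 4933 bases in NC and 4848 in sh-ANP32B. In MV4-11 the same region was split, and its peak of 747 bases in NC and 1384 in sh-ANP32B was kept. These values are therefore not alike between the lines.

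BCL2L1, which encodes BCL-XL (chr20:31664452-31723989, minus strand), had 6347, 5737, 4863 and 4656 locus bases. Promoter bases were 1500, 1434, 994 and 1231, and in MV4-11 the promoter peak was wider after knockdown and reached over the start only then. A peak in intron 2 of 1508 bases in MV4-11 NC and 1087 bases in sh-ANP32B had no counterpart in Kasumi-1. Another in the same intron had 1923 and 1723 bases in the Kasumi-1 libraries, was missing in MV4-11 NC and had 289 bases in MV4-11 sh-ANP32B. The promoter of TPX2, a spindle gene, also fell in this locus, and without peaks there BCL2L1 had 4981, 4747, 4063 and 3738 bases.

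BCL2A1, an NF-kappaB target of blood cells (chr15:79960892-79971196, minus strand), had 9820, 9115, 10152 and 9714 locus bases. The lines overlapped at this locus. The widest stretch of peaks lay upstream, between base -12148 and base -6103, where 4076 bases were under a peak in all 4 libraries. That region was a peak of 5833 bases in Kasumi-1 NC and peaks of 3273 and 2216 bases in Kasumi-1 sh-ANP32B. The start was under no peak in any library. A peak of 818 bases that ended at base -168 in MV4-11 NC was absent from MV4-11 sh-ANP32B, so promoter bases were 818 and 0 in MV4-11 and 877 and 959 in Kasumi-1.

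BAX, an effector that forms the mitochondrial pore (chr19:48954815-48961798, plus strand), had 10467, 10021, 7097 and 6650 locus bases. Most of them belonged to a broad domain that began in the end of the gene and ran over the promoter of FTL, the ferritin light chain gene. Without the peaks that touched the FTL promoter, 1542, 1106, 360 and 346 bases were left. The 346 bases were a peak inside the gene, from base 5765 to base 6110, that had no counterpart in MV4-11 NC. The BAX promoter peak, over the start in Kasumi-1 NC and just past it in MV4-11 NC, was interrupted or missing after knockdown. In Kasumi-1 NC, it covered base -665 to base 876 without a break. In Kasumi-1 sh-ANP32B, it was replaced by peaks from base -714 to base -111 and from base 480 to base 981, which left the start uncovered, with 140 of the 250 promoter bases printed above still under a peak. Within the gene body alone, BAX had 2651, 2204, 555 and 346 bases. In MV4-11, a peak of 360 bases in NC, at percentile 9.66 of the widths in that library, was absent from sh-ANP32B. It ran from base 16 to base 375, so the start was uncovered in NC as well.

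BAK1, the other effector (chr6:33572547-33580293, minus strand), had 3621, 3876, 1791 and 1638 locus bases and 1809, 2032, 1115 and 1291 promoter bases. The Kasumi-1 values lay above the MV4-11 values in both windows. In each line promoter bases were higher in sh-ANP32B than in NC. A peak of 364 bases in intron 1 in MV4-11 NC had no counterpart in sh-ANP32B, but the peak over the start was 751 bases wide in NC and 1291 in sh-ANP32B and lay 7 bases from it.

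**Figure D2:**
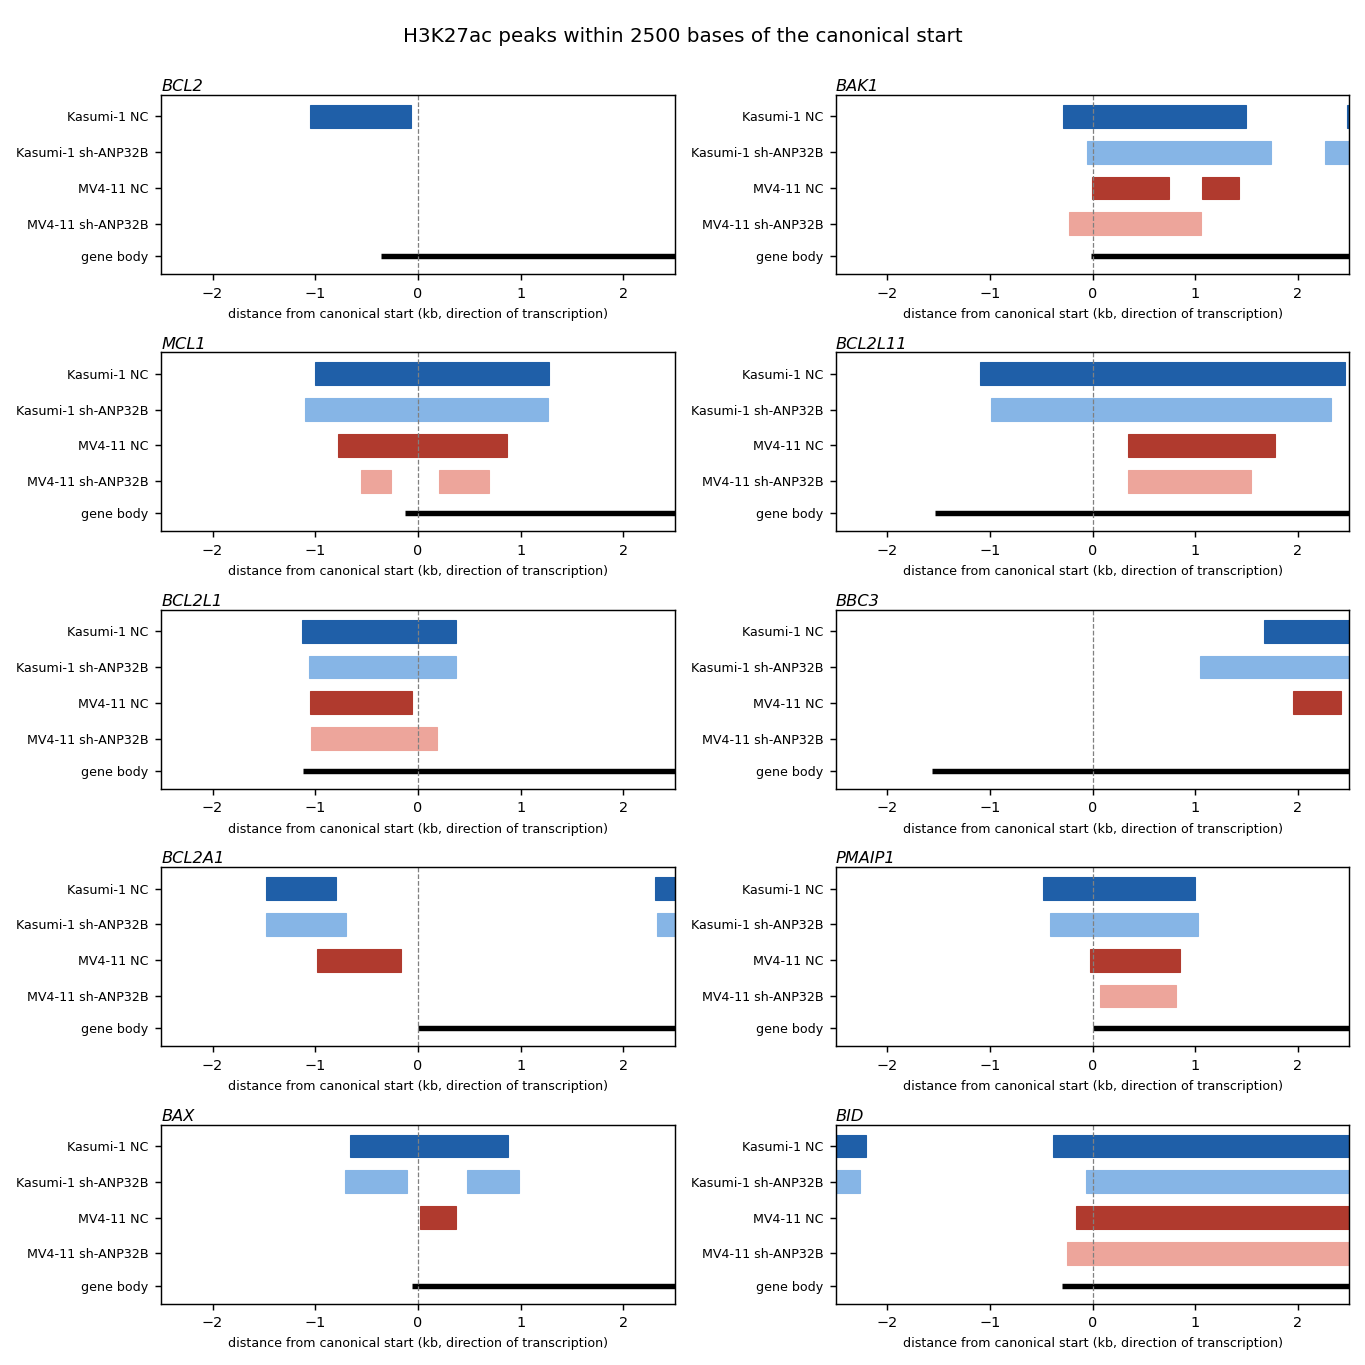
Peaks in the promoter windows of the 10 genes, 1 row per library, against distance in kb from the canonical start (dashed line) in the direction of transcription. After knockdown the BAX peak is split around the start in Kasumi-1 and absent in MV4-11, the MCL1 peak is split in MV4-11, and the BCL2L11 peak begins past the start in both MV4-11 libraries.

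Among the BH3-only genes, BCL2L11, which encodes BIM (chr2:111119378-111168444, plus strand), had 1 peak in each library, over its start or just past it. Its width was 3553, 3311, 1430 and 1204 bases, so both values of a line were close and the lines did not overlap. In Kasumi-1 it spanned the start, from base -1094 to base 2458 in NC. In MV4-11 it began at base 342 in both libraries, to the same base, and left the GC-rich promoter printed above uncovered.

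BBC3, which encodes the p53 target PUMA (chr19:47220822-47232766, minus strand), had 5296, 6152, 3961 and 4159 locus bases, the higher value of each line being that of sh-ANP32B. Its widest peaks lay inside the gene and not at the canonical start. The main peak had its middle in intron 2 in every library, was 4265, 4826, 2594 and 2780 bases wide, and shared a stretch of 2594 bases in all 4 libraries. Promoter bases were 837, 1460, 469 and 0. The missing MV4-11 promoter peak had 469 bases, and the main peak of sh-ANP32B began at base 2531, just outside the window and 117 bases from where the missing peak had ended. Upstream of the gene, both MV4-11 libraries had a peak near base -13175, of 898 bases in NC and 470 in sh-ANP32B, and Kasumi-1 had none. Downstream, Kasumi-1 had a peak of 1031 bases in NC and 1326 in sh-ANP32B. In MV4-11 sh-ANP32B, peaks of 521 and 388 bases downstream of the gene had no counterpart in NC, the first of them at the place of the Kasumi-1 peak.

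PMAIP1, which encodes NOXA, a partner of MCL1 (chr18:59899996-59904305, plus strand), had 2910, 2966, 2970 and 2481 locus bases and 1490, 1437, 882 and 736 promoter bases. The promoter peak covered the start in both Kasumi-1 libraries and in MV4-11 NC, and began at base 73 in MV4-11 sh-ANP32B. A region downstream of the gene had 1420 bases under a peak in all 4 libraries. The width of its peak was 1420, 1529, 1715 and 1745 bases, so there the MV4-11 libraries had the wider peaks.

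BID, whose product is cleaved by caspase-8 (chr22:17734138-17774770, minus strand), had the most locus bases, with 13931, 13720, 12691 and 12195. Its promoter bases were 3182, 2806, 2660 and 2746. Acetylation covered both its start and a wide upstream region, with 4519 and 5017 bases under peaks in all 4 libraries. These regions held the widest peaks of the gene, up to 6084 bases in Kasumi-1 and 5741 in MV4-11, both after knockdown. Peaks of 318 and 436 bases toward the other end of the gene were absent from MV4-11 sh-ANP32B.

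**Figure D3:**
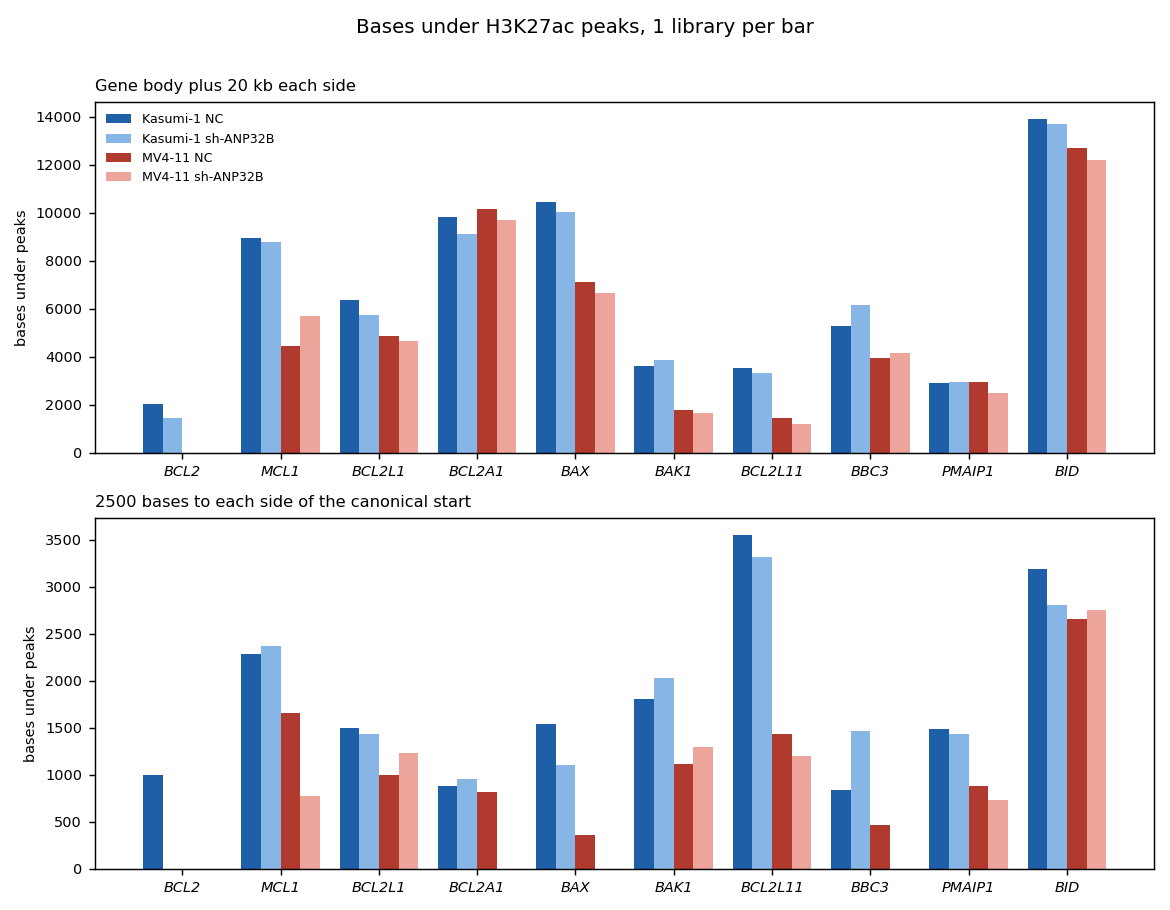
Bases under peaks in the locus (top) and in the promoter window (bottom) of each gene, with 1 bar per library and no error bars because each group had 1 list. NC and sh-ANP32B bars of a line are close in the loci, while the BCL2 promoter bar is present in Kasumi-1 NC only and the BAX, BBC3 and BCL2A1 bars are missing in MV4-11 sh-ANP32B.

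Set side by side, NC and sh-ANP32B differed little at the level of whole loci. In Kasumi-1, 7 of the 10 genes had fewer locus bases after knockdown (BCL2, MCL1, BCL2L1, BCL2A1, BAX, BCL2L11 and BID), against 46% of all genes with locus bases in either library, and between 5 and 8 had fewer under the other settings. In MV4-11, 7 of 9 had fewer (all but MCL1 and BBC3), close to the background of 75.9%, and once the values were divided by the ratio of all bases under peaks none of the 9 had fewer and all 9 had more. The direction in MV4-11 thus depends on the scaling. No gene differed by 1.5-fold or more. The counts were 0 of 10 lower in Kasumi-1, against 8.79% of all genes, 0 of 10 higher, against 5.65%, 0 of 9 lower in MV4-11, against 39.4%, and 0 of 9 higher, against 7.66%. Between the genes, the ratio of sh-ANP32B to NC ranged from 0.715 (BCL2) to 1.16 (BBC3) in Kasumi-1 and from 0.835 (PMAIP1) to 1.29 (MCL1) in MV4-11. The median log2 ratio in MV4-11 was -0.06 over the 9 genes and -0.32 over all genes with bases in both libraries. In Kasumi-1 the medians were -0.05 and 0.02. The 10 loci also held more bases than most, with a median of 4196 in MV4-11 NC against 787 over all genes, and whether genes with as many bases keep them as often was not tested.

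Whole promoter peaks were missing after knockdown at some members. Of all 20007 protein-coding genes, 9537, 9057, 7154 and 5727 had a promoter peak, in the order of libraries used above. All 10 members had such a peak in Kasumi-1 NC and 9 after knockdown. BCL2 was the 1 without after knockdown, against 6.79% of all genes with a promoter peak in NC. In MV4-11, 9 had a promoter peak in NC and 6 in sh-ANP32B. The 3 without were BCL2A1, BAX and BBC3, against 24.4% of all genes. The only member without a promoter peak in MV4-11 NC, BCL2, had none in sh-ANP32B either, so 0 of 1 had a promoter peak after knockdown alone, against 2.45%. Fewer promoter bases were found for 6 of 10 genes in Kasumi-1, against 49.9%, and for 6 of 9 in MV4-11, against 78.1%. The shares without a peak after knockdown and with fewer promoter bases lie near their backgrounds and are no result about the family as a whole. The larger share of members with a promoter peak was not tested. The absent MV4-11 peaks also depended on the window, since within 5000 bases of the start only BAX lacked a peak after knockdown, and BCL2A1 kept a peak near the start of another coding transcript. BCL2 in Kasumi-1 was without one in every window tried, from 1000 to 5000 bases, but its NC peak was under 1000 bases wide, and among peaks of at least 1000 bases BAX was the gene without a promoter peak after knockdown.

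Members without a promoter peak after knockdown were found among anti-apoptotic genes (BCL2 in Kasumi-1, BCL2A1 in MV4-11), effectors (BAX in MV4-11) and BH3-only genes (BBC3 in MV4-11). The absent peaks ranged from 360 to 993 bases in width and from 42.7% GC at BCL2A1 to 74.2% GC at BCL2.

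Peak positions at the start itself showed a further difference between libraries. The canonical start was under a peak for 7 of the 10 genes that had a promoter peak in the NC library of Kasumi-1 and 6 of 9 in its sh-ANP32B library, and in MV4-11 for 4 of 9 and 3 of 6. Over all genes with a promoter peak the shares were 86.7%, 77.8%, 66.5% and 57.5%. The starts of BCL2, BCL2A1 and BBC3 were under no peak in any library. BAX in Kasumi-1 and MCL1 and PMAIP1 in MV4-11 had the start covered in NC and uncovered in sh-ANP32B, and BCL2L1 in MV4-11 the reverse.

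Between the NC libraries, locus bases were at least 1.5-fold higher in Kasumi-1 for 4 of 10 genes (BCL2, MCL1, BAK1 and BCL2L11), against 50.9% of all genes, and at least 1.5-fold higher in MV4-11 for 0 of 10, against 14.8%. Kasumi-1 NC covered 1.173 times the length of MV4-11 NC over the genome. BCL2L11 had the largest ratio of the 9 genes with bases in both, 2.48, and BCL2A1 and PMAIP1 had ratios of 0.967 and 0.98. The median log2 ratio was 0.42 over these 9 genes and 0.53 over all genes. Line, label and library cannot be told apart here.

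Joined over the 4 libraries, the peaks of the 10 loci formed 44 separate regions. Of these, 21 (47.7%) had a peak in all 4 libraries, against 32.2% of the 34053 regions of the genome. A further 4 (9.09%, against 14.1%) had peaks in both Kasumi-1 libraries only, 2 in BCL2, 1 in BCL2A1 and 1 in BAK1. Another 5 (11.4%, against 12.4%) had peaks in both MV4-11 libraries only, in MCL1, BCL2L1, BCL2A1, BBC3 and BID. Regions in promoter windows had a peak in all 4 libraries in 10 of 13 cases, and the other regions in 11 of 31. This split was not made over the genome, so neither it nor the 47.7% is shown to be particular to these loci. Regions found in a single library numbered 3 in Kasumi-1 NC (6.82%, against 4.12% over the genome), 1 in its sh-ANP32B library (2.27%, against 6.21%) and 2 in each MV4-11 library (4.55%, against 9.42% for NC and 7.67% for sh-ANP32B).

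Peak by peak, 4 of the 35 Kasumi-1 NC peaks in these loci (11.4%) overlapped no sh-ANP32B peak, against 9% of all Kasumi-1 NC peaks, and 1 of the 34 sh-ANP32B peaks (2.94%) overlapped no NC peak, against 13.2%. In MV4-11 the numbers were 8 of 43 NC peaks (18.6%, against 29.1%) and 5 of 37 sh-ANP32B peaks (13.5%, against 17.7%). The NC peaks without a counterpart were between 318 and 993 bases wide in both lines together. The 27 Kasumi-1 peaks matched to a single counterpart had a median width change of 10 bases, with 12 narrower and 15 wider after knockdown. In MV4-11 the median change over 26 such peaks was 16 bases, with 12 narrower and 14 wider. The change over matched peaks of the genome was not computed, so these counts have no background. The median width of all peaks was 1044 and 980 bases in Kasumi-1 and 815 and 742 in MV4-11, NC before sh-ANP32B.

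**Figure D4:**
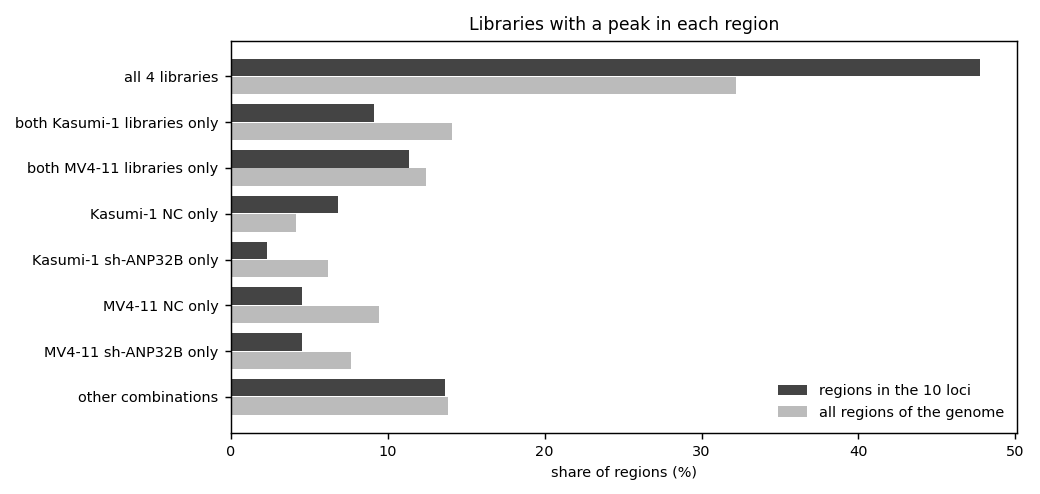
Share of joined peak regions (percent, horizontal axis) by the libraries that have a peak in them, for the 44 regions of the 10 loci (dark) and the 34053 regions of the genome (light). Regions with a peak in all 4 libraries make up 47.7% of the former and 32.2% of the latter.

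The genes whose locus bases over the 4 libraries came nearest to those of BCL2 were BARD1, MICA and ZFP90, with summed absolute differences of 56, 59 and 183 bases. Those nearest to MCL1 were LRTM2, TGM1 and CFAP410, with 1237, 1377 and 1851 bases. Likeness over 4 libraries is a description of peak extent only.

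Other members of the family had promoter peaks less often than the 10 genes above. As background, 9537, 9057, 7154 and 5727 of the 20007 protein-coding genes had such a peak, in the usual order of libraries. Whether the lists below differ from this background was not tested. Of 10 further BCL2 family genes, promoter peaks were found for 6 in the NC and 5 in the sh-ANP32B library of Kasumi-1 and for 4 in each MV4-11 library. The gene without one after knockdown was BIK, a BH3-only gene, whose promoter window held 693 bases in Kasumi-1 before and 0 after it. Locus bases were at least 1.5-fold lower in MV4-11 sh-ANP32B for 4 of the 8 genes with bases, near the 39.4% of all genes, and for 0 of 8 in Kasumi-1, where the share of all genes was 8.79%. Of 12 caspase pathway genes, most act downstream of the mitochondria (CASP8 acts upstream of them). In each Kasumi-1 library 10 of them had a promoter peak, though not the same 10, and in MV4-11 9 had one in NC and 8 after knockdown. DIABLO, which encodes an antagonist of the caspase inhibitors, had 460 promoter bases in Kasumi-1 NC and 0 after knockdown, CASP9, the initiator caspase of this pathway, had 0 and 370, and BIRC2, a caspase inhibitor family gene, had 860 in MV4-11 NC and 0 after knockdown. In MV4-11, all 10 of these genes with locus bases had fewer after knockdown, against 75.9% of all genes, and 7 of the 10 were lower by at least 1.5-fold or had none, against 39.4%. In Kasumi-1, 3 of the 12 had fewer and 9 had more, against 46% of all genes with fewer. BIRC2 and BIRC3 are neighbours and share the same peak in this count. APAF1, which forms the apoptosome, had 2198, 2244, 2002 and 891 locus bases. No test compares these lists.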

How the data were processed

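H3K27ac CUT&Tag peak lists of 4 libraries, 1 per line and condition, were analysed. Per the study's methods, the authors used Bowtie2 (2.2.5) and hg38 for alignment, Picard against PCR duplicates, samtools (1.15.1) for merging replicates, and MACS2 (2.2.7) with a q-value of 0.01 for peaks. The submitters' processing notes name Bowtie2 2.4.4 and MACS3 3.0. Whether IgG served as control is not stated. The deposited lists give the start, end and length of each peak in bases, with no height, p-value or depth, so precision could not be computed. The smallest peak ranged from 275 to 357 bases between lists, and all 195 sequence names were in hg38.

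Canonical transcripts came from GENCODE v44, 1 gene per symbol. Bases under peaks were summed per window, and a peak had a counterpart where at least 1 base overlapped. Genes differing by 1.5-fold were counted, with a count over all protein-coding genes as background. Named genes were all members, listed genes that lost or gained a promoter peak, neighbours whose promoters fell in a locus, and the 3 genes nearest in locus bases to BCL2 and to MCL1. APAF1 was named after its values were seen. Values of some list and marker genes are not reported here. Members, lists and markers were chosen with earlier results of these data known. Scripts used Python 3.11.15, numpy 2.4.6 and pysam 0.24.0. Only their functions for finding, summing and joining peaks were tested on simulated data. Motifs were searched in RefSeq promoters (GRCh38.p14) and in hg38.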

Additional observations from a re-analysis of the deposited data

Results flagged for a closer look

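For 3 genes, locus bases differed between sh-ANP32B and NC in opposite directions in the lines. With 1 pair of libraries per line, none of these differences was tested. MCL1 differed by -173 bases in Kasumi-1 and by 1266 in MV4-11, BAK1 by 255 and -153, and PMAIP1 by 56 and -489. Promoter bases went in opposite directions for 5 genes, also untested. The differences in Kasumi-1 and MV4-11 were 87 and -879 for MCL1, -66 and 237 for BCL2L1, 82 and -818 for BCL2A1, 623 and -469 for BBC3, and -376 and 86 for BID. MCL1 thus had opposite signs between its promoter and its whole locus in both lines. After division by the ratio of all bases under peaks, the MV4-11 locus values of BAK1 and PMAIP1 changed sign, as did the Kasumi-1 value of PMAIP1.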

How the results depend on the processing

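No paired analysis was possible because each group had 1 list and no result came from a test. Of the counts recomputed under other settings, 98 stayed within 1.5 times the reported count and 22 did not. The cause of these changes was not tested, except that the scaled values follow from the smaller MV4-11 sh-ANP32B total. Genes lower by 1.5-fold in MV4-11 after knockdown, 0 as reported, numbered 1 with the gene body only, 1 with 50 kb flanks and 1 with a common minimum width and gap. Genes higher by 1.5-fold there, also 0, numbered 2 with only peaks of at least 1000 bases, 1 after division by the ratio of all bases under peaks and 1 at a lower fold threshold, which also gave 1 gene lower in Kasumi-1. Genes with fewer locus bases in MV4-11 numbered 3 with only peaks of at least 1000 bases and 0 after that division, both run after seeing the data. Genes higher in Kasumi-1 NC than in MV4-11 NC numbered 7 with only peaks of at least 1000 bases and 7 at that threshold, and 1 gene was higher in MV4-11 NC with the gene body only. With only peaks of at least 1000 bases, 3 genes had a promoter peak in MV4-11 NC, 1 was without it after knockdown (MCL1) and 2 had it after knockdown only (BAK1 and BCL2L1). In Kasumi-1 that setting left BCL2 with no promoter peak in either library and made BAX the gene without it after knockdown. With the start of any coding transcript, BCL2A1 was no longer among the MV4-11 genes without it. With a window of 5000 bases, chosen after seeing the data, 1 was without it (BAX). At an overlap of 50% of each peak, Kasumi-1 had 7 NC and 6 sh-ANP32B peaks without a counterpart, and MV4-11 had 18 and 12. With peaks up to 1000 bases apart joined, the sh-ANP32B lists had 0 in Kasumi-1 and 3 in MV4-11. Log2 ratios of locus bases moved for BCL2 in Kasumi-1 (0.13 with the gene body only), BAX in MV4-11 (-0.68 with the gene body only) and MCL1 in MV4-11 (1.48 with only peaks of at least 1000 bases). Depth is unknown, so a missing peak was not detected by the caller at that depth and is not shown to be absent.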

Other observations

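Some peak edges fell on the same base in the NC and sh-ANP32B lists of a line. In Kasumi-1 this held for 5 of the 62 edges of member peaks with a counterpart (8.06%) and for 5.85% of such edges over the genome. In MV4-11 it held for 2 of 70 (2.86%) and for 3.11%. The BCL2L11 peak began at base 342 after the start in both MV4-11 libraries, and the upstream BID peak reached to base -8344 in Kasumi-1 sh-ANP32B and in both MV4-11 libraries.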
